A study of Mus musculus with 8 samples.

Results

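Axon guidance genes were read from the transcriptome of N2a cells, a mouse neuroblastoma line, collected 24 hours after they were transfected to overexpress Nrsn2. They are the secreted and membrane-bound cues that steer growing axons, and the receptors for those cues. Protein-coding genes were taken by name: class 3 to 7 semaphorins, plexins, Eph receptors, ephrins, netrins, UNC5 and ROBO receptors, slits, neuropilins and Dcc. The rule gave 71 of 49164 genes with a count row. Of these, 2 match by name only: Unc50, a homologue of the worm protein UNC-50, and Unc5cl, a relative of UNC5 that is not known as a netrin receptor. The other 69 comprise 35 ligands and 34 receptors. PolyA RNA was sequenced from 4 libraries of cells that overexpress Nrsn2, the gene of the neuronal vesicle protein neurensin-2, and from 4 libraries of control N2a cells. The labels give no other treatment of the control cells, no share of cells that took up the construct, and do not say whether the replicates are separate cultures. The p-values therefore describe the spread among these libraries, which may be technical.

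Guidance cues act in ligand and receptor pairs that make a growth cone turn, collapse or advance. Class 3 semaphorins bind neuropilins, which signal through class A plexins. Semaphorins of other classes bind plexins directly. Ephrins are held on the cell surface and bind Eph receptor tyrosine kinases on neighbouring cells, and many ephrins also signal backwards into their own cell. Netrins attract through DCC and repel through UNC5 receptors, while slits repel through ROBO receptors. Many of these genes act in the migration and neurite growth of neural crest cells, the lineage from which neuroblastoma arises.

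Library totals were 17522453 to 21395096 counts with Nrsn2 overexpression and 15347255 to 20600086 counts in control libraries (two-sided exact permutation p = 0.343). Nrsn2 had 147 to 173 CPM in overexpression libraries and 6.54 to 10.6 CPM in control libraries (log2 fold change 4.23 ± 0.11, SE; edgeR adjusted p = 2.89e-15). CPM is a gene's share of its library's counts after TMM scaling. Overexpression library 1 stood apart from its replicates. The chi-square of counts per degree of freedom was 13.3 to 16.1 for its pairs and 2.61 to 6.44 among overexpression libraries 2 to 4. Control library 4 also differed from its replicates, by less. Its pairs had 7.90 to 11.3, and those among control libraries 1 to 3 had 4.62 to 7.1. The 71 genes, Unc50 included, took 0.197% to 0.220% of the counts in overexpression libraries and 0.183% to 0.199% in control libraries. Hand2, a marker of the sympathoadrenal neuroblast, the cell of origin of this tumour type, averaged 32.9 ± 2.04 CPM with overexpression and 38.5 ± 4.53 CPM in control cells (SD, n = 4 each). For 6 neuronal markers the sums were 665 to 747 CPM with overexpression and 859 to 926 CPM in control cells, with Nefl and Nefm near 0 in both groups. Sums for 5 macrophage markers were 1.66 to 2.57 CPM with overexpression and 0.935 to 1.35 CPM in control cells, in which Adgre1 was near 0, those for 6 glial markers 11.2 to 14.1 CPM with overexpression and 14.1 to 17.0 CPM in control cells, and those for 6 fibroblast markers 7.05 to 8.23 CPM with overexpression and 7.32 to 9.12 CPM in control cells. Sox10, Aqp4, Gfap and S100b of the glial list, Lum, Thy1 and Col1a2 of the fibroblast list, and Ptprc and Tyrobp of the macrophage list were near 0 in both groups. The glial sum was mostly Mbp (10.6 CPM with overexpression and 12.8 in control cells), the fibroblast sum mostly Pdgfra (5.88 and 6.33) and the macrophage sum mostly Cd68 (1.34 and 0.791). These sums therefore do not show that such cells were present. Of the neuronal list Tubb3 did not fall (202 and 193). The part of these marker differences in the results was not tested. In bulk RNA, fewer cells of a type and less RNA per cell cannot be told apart.

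Of the 71 genes, 69 had at least 1 count, 19 averaged at least 10 CPM and 35 averaged under 1 CPM over the 8 libraries. Efnb1 and Unc5cl had 0 counts in 147175018, which allows up to 0.0204 CPM over all libraries (3 counts; counting error only). A low-count filter passed 43 genes. The 28 others held at most 79 counts in all libraries together, and they include Dcc, Ntn1, Robo1, Robo2, Robo4, 8 of the 14 Eph receptors and 5 of the 7 class 3 semaphorins.

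Genes were compared as CPM per kilobase of annotated exon. The length joins all annotated exons of a gene, 6258 bases for Unc5b and 19135 for Unc5c, whether or not these cells use them. In CPM alone Unc5c, at 393, was above Unc5b, at 173, over the 8 libraries. Per kilobase, the leading guidance gene among the members was the UNC5 receptor gene Unc5b, at 30.9 in overexpressing and 24.3 in control cells. The cell-surface ligand gene Efna5 had 24.4 with overexpression and 21.4 in control cells, the secreted ligand gene Slit3 24.5 with overexpression and 20.3 in control cells, and the receptor gene Unc5c 19.4 with overexpression and 21.7 in control cells. These 4 were close to each other, and the order of Efna5, Slit3 and Unc5c differed between the groups. Unc50, which is no guidance gene, was higher than all of them at 58.3 with overexpression and 63.8 in control cells. It had 89.6, 86.8, 97.8 and 94.0 CPM in overexpression libraries 1 to 4, against 101, 101, 109 and 91.7 CPM in control libraries 1 to 4. The groups overlapped, and the log2 fold change of -0.13 ± 0.07 did not pass (edgeR adjusted p = 0.136), except with GC and length offsets and when control library 4 was left out (adjusted p of 0.00830 to 0.339 over the alternatives). Other abundant members on this scale, averaged over the 8 libraries, were the neuropilin genes Nrp2 (14.2) and Nrp1 (10.2), the plexin genes Plxna4 (13.1) and Plxnb2 (9.81), and the membrane semaphorin genes Sema4d (10.0) and Sema6d (8.17).

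Several cues and their usual receptors were present at very unlike levels. Slit3 and Slit2 reached means of 22.4 and 2.36 CPM per kilobase over the 8 libraries, on exon lengths of 6067 and 25433 bases. In CPM they averaged 136 and 60.0. The highest of the 4 robo genes, Robo3, had 0.120 CPM per kilobase, and Robo1 and Robo2 held 9 and 24 counts in all libraries. Over the 8 libraries both UNC5 genes named above averaged more than 20 CPM per kilobase. The netrin co-receptor gene Dcc held 11 counts and Ntn1, the best-known netrin, 18. The highest netrin gene, Ntn3, had 1.75 CPM per kilobase on 1304 counts. Neo1, from the partner list read below and named after its value was seen, had 46.0 CPM per kilobase. The highest of the 14 Eph receptor genes was Epha1 at 0.580, below the 22.9 of the ephrin gene Efna5. Reads of Epha1 cannot be told apart from those of the overlapping gene Zyx where the spans meet, because the library kit does not mark strand.

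**Figure D1:**
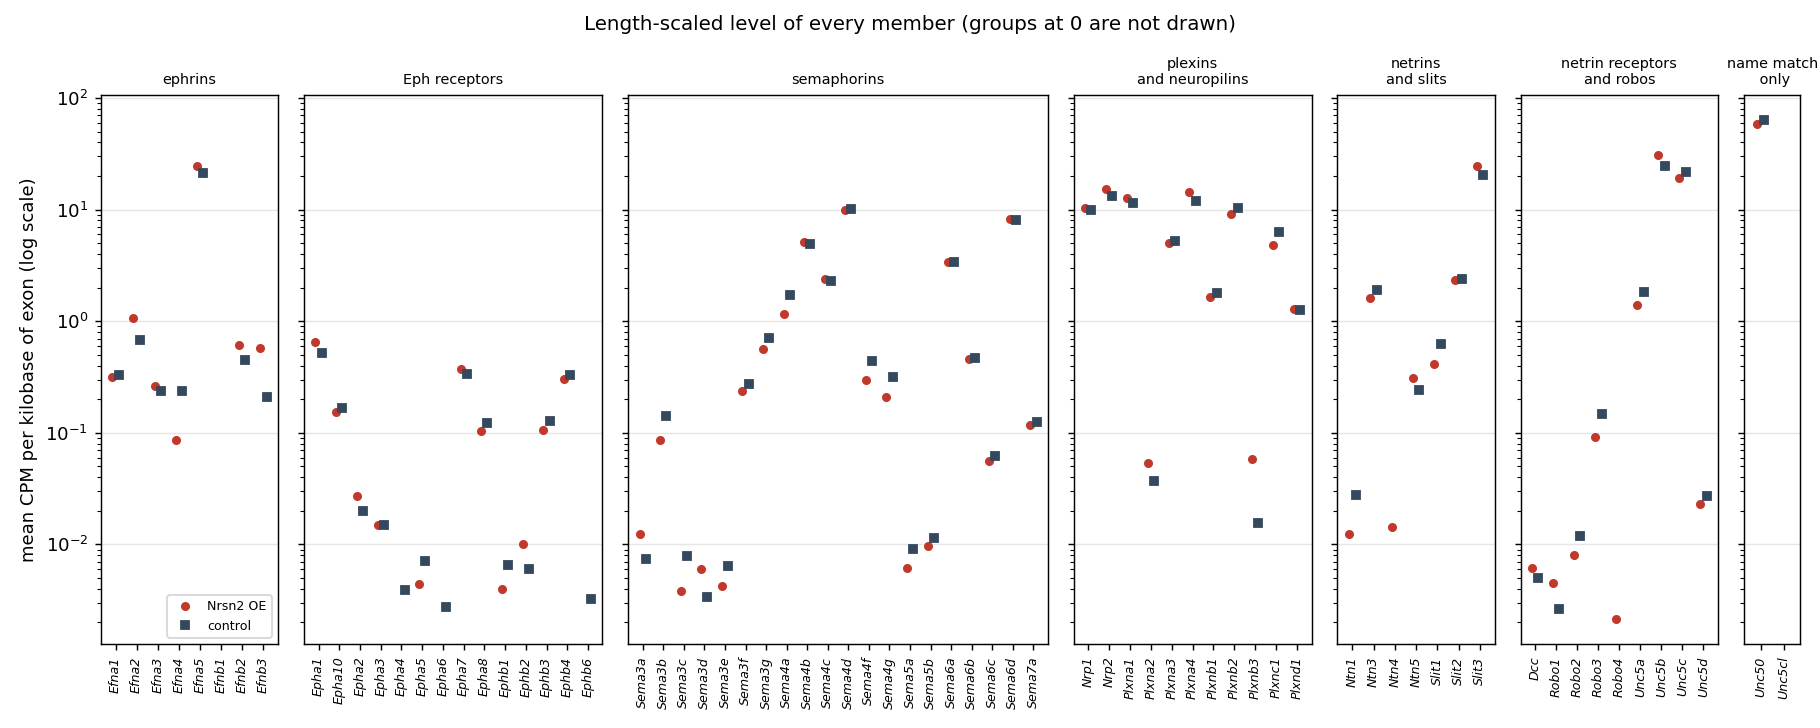
Mean level of each of the 71 genes in Nrsn2-overexpressing cells (red circles) and control cells (dark squares), as CPM per kilobase of exon on a log axis, by family; n = 4 libraries each, and groups at 0 are not drawn. Efna5, Slit3, Unc5b and Unc5c lie near or above 20, and all Eph receptors and robos lie under 1.

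Nrsn2 overexpression was accompanied by higher levels of 7 axon guidance genes and lower levels of 3, out of 43 tested (23.3%). Across all genes tested, 35.4% passed, 18.6% higher and 16.8% lower, and among tested protein-coding genes 36.8% passed, 20.3% higher and 16.5% lower. The genes that rose were the ephrin genes Efnb3, Efna2 and Efna5, the ligand gene Slit3, and the receptor genes Unc5b, Plxna4 and Nrp2. Those that fell were the semaphorin gene Sema4a, the plexin gene Plxnc1 and the ligand gene Slit1. Changes were mostly small: Efnb3 alone passed a 2-fold change, and 6 of the 10 had an absolute log2 fold change under 0.5. The median log2 fold change of the 43 genes was -0.05, beside -0.0009 for all tested genes. Unc50 is among the 43. Without Unc50 and Unc5cl, 42 genes were tested, 23.8% passed and the median was -0.037. Levels of the groups did not overlap for 10 of the 43 (23.3%), against 32.6% of all tested genes. Tests used the quasi-likelihood F test of edgeR with Benjamini-Hochberg adjustment over all tested genes, at an adjusted p under 0.05. Offsets for transcript GC content and length changed the balance to 6 higher and 9 lower of the 43, with Unc50 among the lower. Under these offsets 2795 of all 15187 tested genes were higher and 2711 lower. The count of lower genes was 6 without overexpression library 1, beside 6 higher, and 5 with no low-count filter, beside 7 higher.

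**Figure D2:**
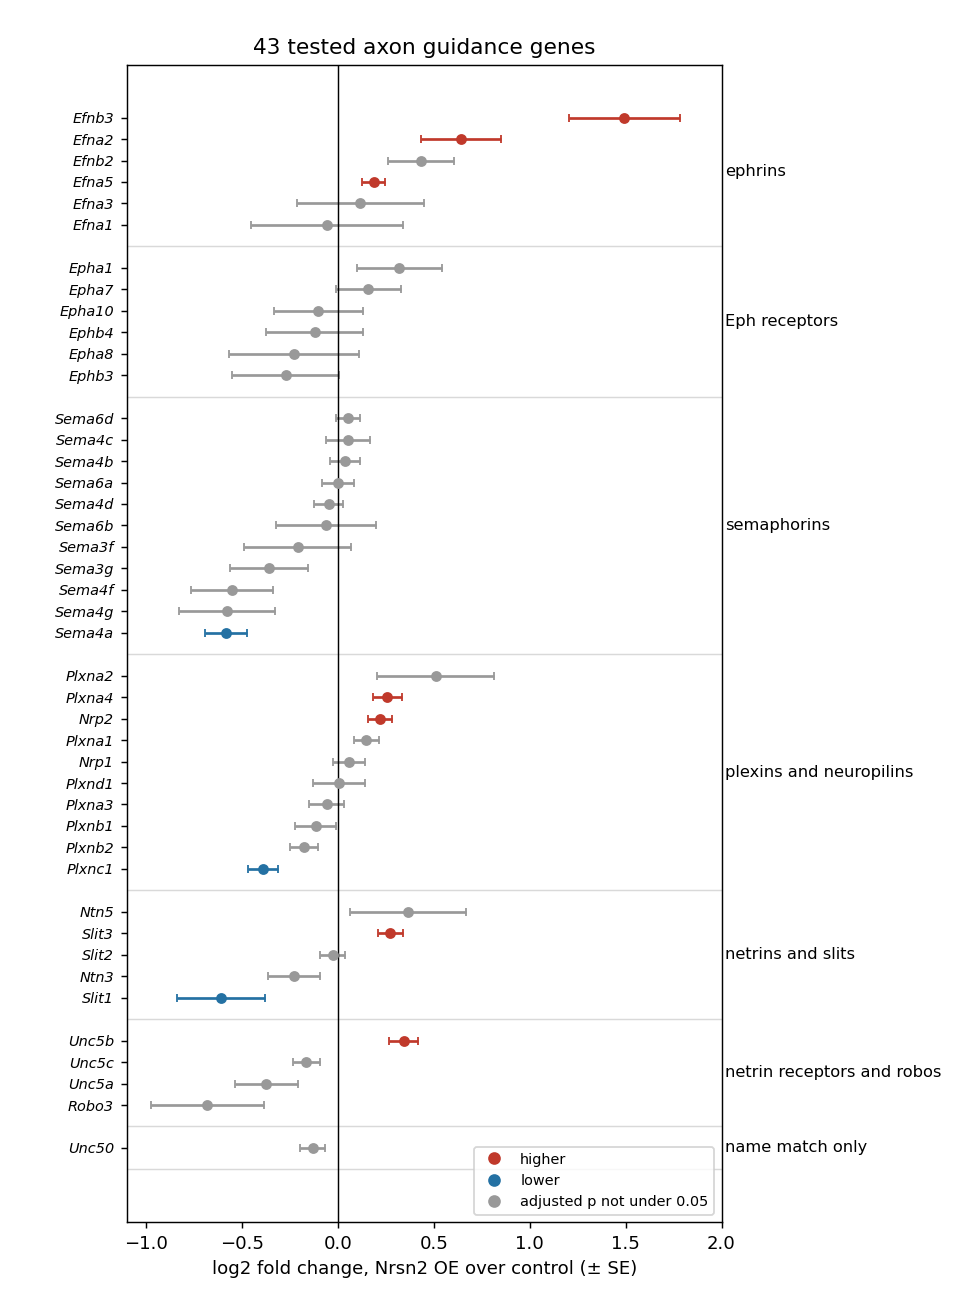
Log2 fold change of the 43 tested genes, Nrsn2 overexpression over control, with standard errors (n = 4 libraries each), grouped by family. Red points passed as higher, blue as lower and grey did not pass; Efnb3 at 1.49 lies furthest from 0.

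Promoters of the genes that passed are shown for 2 that rose and 2 that fell, because these stretches let genes that moved in opposite directions be compared. Each runs over 300 bases, of which 250 lie before and 50 after the start site in RefSeq on GRCm38.p6, written 5′ to 3′ on the gene's strand. Capitals mark the GC box, the letters GGGCGG or their reverse complement CCGCCC, a motif bound by SP1-type factors. Matches may overlap each other. Positions are chr11:35121206-35121505 (plus strand) for Slit3, chr10:60831532-60831831 (minus) for Unc5b, chr10:94944796-94945095 (minus) for Plxnc1 and chr3:88458835-88459134 (minus) for Sema4a, the one of its 4 listed starts with the most CG dinucleotides.
Slit3: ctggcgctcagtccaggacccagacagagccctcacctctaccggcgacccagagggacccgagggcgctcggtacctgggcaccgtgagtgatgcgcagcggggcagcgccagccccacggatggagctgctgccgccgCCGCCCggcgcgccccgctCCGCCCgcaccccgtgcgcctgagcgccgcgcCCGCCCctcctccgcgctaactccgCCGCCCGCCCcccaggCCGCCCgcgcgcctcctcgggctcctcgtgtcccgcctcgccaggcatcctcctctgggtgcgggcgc
Unc5b: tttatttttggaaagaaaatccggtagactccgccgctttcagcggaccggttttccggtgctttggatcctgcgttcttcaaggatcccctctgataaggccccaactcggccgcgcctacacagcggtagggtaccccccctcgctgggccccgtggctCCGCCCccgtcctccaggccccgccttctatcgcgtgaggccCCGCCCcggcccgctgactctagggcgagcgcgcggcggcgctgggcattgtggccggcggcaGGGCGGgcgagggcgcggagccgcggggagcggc
Plxnc1: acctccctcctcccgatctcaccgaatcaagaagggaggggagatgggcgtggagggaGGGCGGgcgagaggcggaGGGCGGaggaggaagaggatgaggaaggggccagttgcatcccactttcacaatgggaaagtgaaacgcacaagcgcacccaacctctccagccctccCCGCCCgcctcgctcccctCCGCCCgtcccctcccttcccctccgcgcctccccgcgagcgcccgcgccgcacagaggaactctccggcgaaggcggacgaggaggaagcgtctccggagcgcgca
Sema4a: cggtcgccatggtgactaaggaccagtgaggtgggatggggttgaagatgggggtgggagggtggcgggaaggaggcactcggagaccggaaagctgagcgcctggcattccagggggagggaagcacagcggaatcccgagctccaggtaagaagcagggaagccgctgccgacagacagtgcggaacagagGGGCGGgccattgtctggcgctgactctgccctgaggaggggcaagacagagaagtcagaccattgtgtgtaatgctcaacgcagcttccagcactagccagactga

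The Slit3 stretch held 6 GC boxes and 41 CG dinucleotides, Unc5b 3 and 36, Plxnc1 4 and 30, and the Sema4a stretch 1 and 14, beside a median of 7 CG dinucleotides over all 32851 listed promoters. The 3 other starts listed for Sema4a held 7, 5 and 4 CG dinucleotides. GC boxes were present on both the rising and the falling side. RefSeq listed a promoter for 61 of the 71 genes. Of the 50 listed promoters of tested axon guidance genes, 86.0% held a GC box, beside 62.0% of the 12452 promoters of tested protein-coding genes and 35.7% of all promoters. A TATA box (TATAAA) was in 4.00% of the 50, beside 7.17% and 13.6%. An E-box (CANNTG) was in 48.0%, beside 63.8% and 72.3%, and a CCAAT box (CCAAT) in 24.0%, beside 38.3% and 37.4%. All motifs were searched on both strands. E-box and CCAAT letters were in none of the promoters listed for Slit3 and Unc5b. These matches are descriptions and not sites.

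Of 4 tested ephrin-A genes 2 rose and 0 fell, and of 2 tested ephrin-B genes 1 rose and 0 fell, beside 18.6% higher and 16.8% lower over all tested genes. Efnb3 (chromosome 11, 69444918 to 69451031 on GRCm39, minus strand), which encodes a transmembrane ephrin of midline and corticospinal axon guidance, had 2.23, 2.09, 1.40 and 1.65 CPM in overexpression libraries 1 to 4. Control libraries 1 to 4 had 0.589, 0.750, 1.00 and 0.343 CPM. Every overexpression library was above every control library, on 27 to 46 counts per library against 7 to 15 counts. The log2 fold change was 1.49 ± 0.29 (SE; edgeR adjusted p = 6.99e-04), and 1.48 with a standard error of 0.35 in the authors' deposited table.

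Efna5 encodes an ephrin anchored in the membrane by a lipid and known for mapping retinal axons (chromosome 17, 62911179 to 63188312). It had 95.3, 101, 96.0 and 102 CPM in overexpression libraries 1 to 4, against 92.0, 87.2, 82.9 and 83.8 CPM in control libraries 1 to 4. The groups did not overlap, but the change was small (log2 fold change 0.19 ± 0.06; edgeR adjusted p = 0.0225). It missed the threshold with no low-count filter, and when 1 of control libraries 2, 3 and 4 or of overexpression libraries 2 and 4 was left out (adjusted p of 0.00443 to 0.0907 over the alternatives). Efna2, of the same lipid-anchored class (chromosome 10, 80015316 to 80025844), had 2.84, 2.27, 1.82 and 2.15 CPM with overexpression and 1.35, 1.27, 1.67 and 1.52 CPM in control libraries. All 4 overexpression libraries were again above the control libraries (0.64 ± 0.21; edgeR adjusted p = 0.0230), though the call was lost with GC and length offsets, and when 1 of control libraries 1 and 2 or overexpression library 1 was left out (adjusted p of 0.0182 to 0.0946 over the alternatives). Efnb2, which guides vessels as well as axons, had a log2 fold change of 0.43 ± 0.17 and did not pass (adjusted p = 0.0569). It passed when library 4 of either group was left out (adjusted p of 0.0249 to 0.162 over the alternatives). Efna3 (0.12 ± 0.33) and Efna1 (-0.06 ± 0.40) were scarce, at under 1 CPM, and Efna4 was not tested. Efna4 pointed the other way, at 0.137 CPM with overexpression and 0.378 CPM in control cells, on 36 counts in all, and its groups overlapped. With no filter its log2 fold change was -1.48 ± 0.59 (edgeR adjusted p = 0.0753).

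Their receptors showed no call. Of 14 Eph receptor genes 6 were tested, and 0 were higher or lower by edgeR, DESeq2 or limma-voom, also 0 at an unadjusted edgeR p under 0.05. Over all tested genes 35.4% passed by edgeR after adjustment. With 6 scarce genes tested, the 0 is not read as a result about Eph receptors or as a contrast to the ephrins. Fold changes ran between -0.27 ± 0.28 for Ephb3 and 0.32 ± 0.22 for Epha1 on the log2 scale. The most abundant in CPM, Epha7, averaged 3.67 ± 0.36 CPM with overexpression and 3.29 ± 0.60 CPM in control cells (SD, n = 4 each). Standard errors of 0.17 to 0.34 leave changes of the size of that of Efna5 undetectable at this depth.

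Among slits, Slit3 rose and Slit1 fell. Slit3 (chromosome 11, 35012051 to 35599334, plus strand) had 151, 162, 138 and 143 CPM in overexpression libraries 1 to 4, against 115, 130, 124 and 123 CPM in control libraries 1 to 4. The lowest overexpression library lay above the highest control library (log2 fold change 0.27 ± 0.07; edgeR adjusted p = 0.00354). Slit2, the member best known at the ventral midline, had 59.5 ± 2.68 CPM with overexpression and 60.6 ± 2.56 CPM in control cells, a log2 fold change of -0.03 ± 0.07 that did not pass. Slit1 (chromosome 19, 41588696 to 41732104) had 3.24, 2.37, 2.08 and 2.20 CPM with overexpression and 2.71, 2.88, 3.67 and 5.63 CPM in control libraries. Its groups overlapped, and the highest value was that of control library 4. The log2 fold change of -0.61 ± 0.23 (edgeR adjusted p = 0.0449) became -0.32 (adjusted p = 0.247) without that library. Slit1 also missed the threshold when control library 3 or 1 of overexpression libraries 2 to 4 was left out, with limma-voom and with the replicate number as a block (adjusted p of 0.0105 to 0.247 over the alternatives). Robo3, an atypical robo receptor of commissural axons and the only tested robo gene, had 0.390 to 0.881 CPM with overexpression and 0.935 to 1.10 CPM in control cells. The groups did not overlap, but the difference did not pass (-0.68 ± 0.30; edgeR adjusted p = 0.0809), except with GC and length offsets (adjusted p = 0.0485, of 0.0485 to 0.202 over the alternatives). By edgeR, DESeq2 and limma-voom 0 robo genes passed, and 1, Robo3, had an unadjusted edgeR p under 0.05. With 1 gene tested, beside 35.4% of all tested genes that passed after adjustment, these counts say nothing about the family.

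Of the netrin receptors, Unc5b rose. Unc5b (chromosome 10, 60598372 to 60667360, minus strand) encodes a repulsive netrin receptor that also acts in blood vessels and, when unbound, can promote cell death. It had 167, 213, 188 and 206 CPM in overexpression libraries 1 to 4, against 151, 149, 142 and 167 CPM in control libraries 1 to 4. Overexpression library 1 lay just under control library 4, and the other 3 overexpression libraries lay above all controls. The log2 fold change was 0.34 ± 0.08 (edgeR adjusted p = 0.00196). Unc5c, a close relative with the same repulsive role and the guidance gene with the most reads, had 396, 377, 354 and 357 CPM with overexpression and 466, 415, 387 and 393 CPM in control libraries. Those groups overlapped, and the log2 fold change of -0.16 ± 0.07 did not pass (adjusted p = 0.0751), except without overexpression library 1 (adjusted p of 0.0326 to 0.291 over the alternatives). With GC and length offsets its log2 fold change was -0.08. Unc5a had 5.85 ± 0.59 CPM with overexpression and 7.54 ± 1.95 CPM in control cells (-0.37 ± 0.16; adjusted p = 0.0830). It passed as lower with GC and length offsets, with no low-count filter and without control library 1 (adjusted p of 0.0140 to 0.269 over the alternatives). The netrin genes Ntn3 (-0.23 ± 0.13) and Ntn5 (0.36 ± 0.30) did not pass by edgeR, DESeq2 or limma-voom, and 0 of them had an unadjusted edgeR p under 0.05. With 2 genes tested, beside 35.4% of all tested genes that passed after adjustment, this is no result about netrins.

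**Figure D3:**
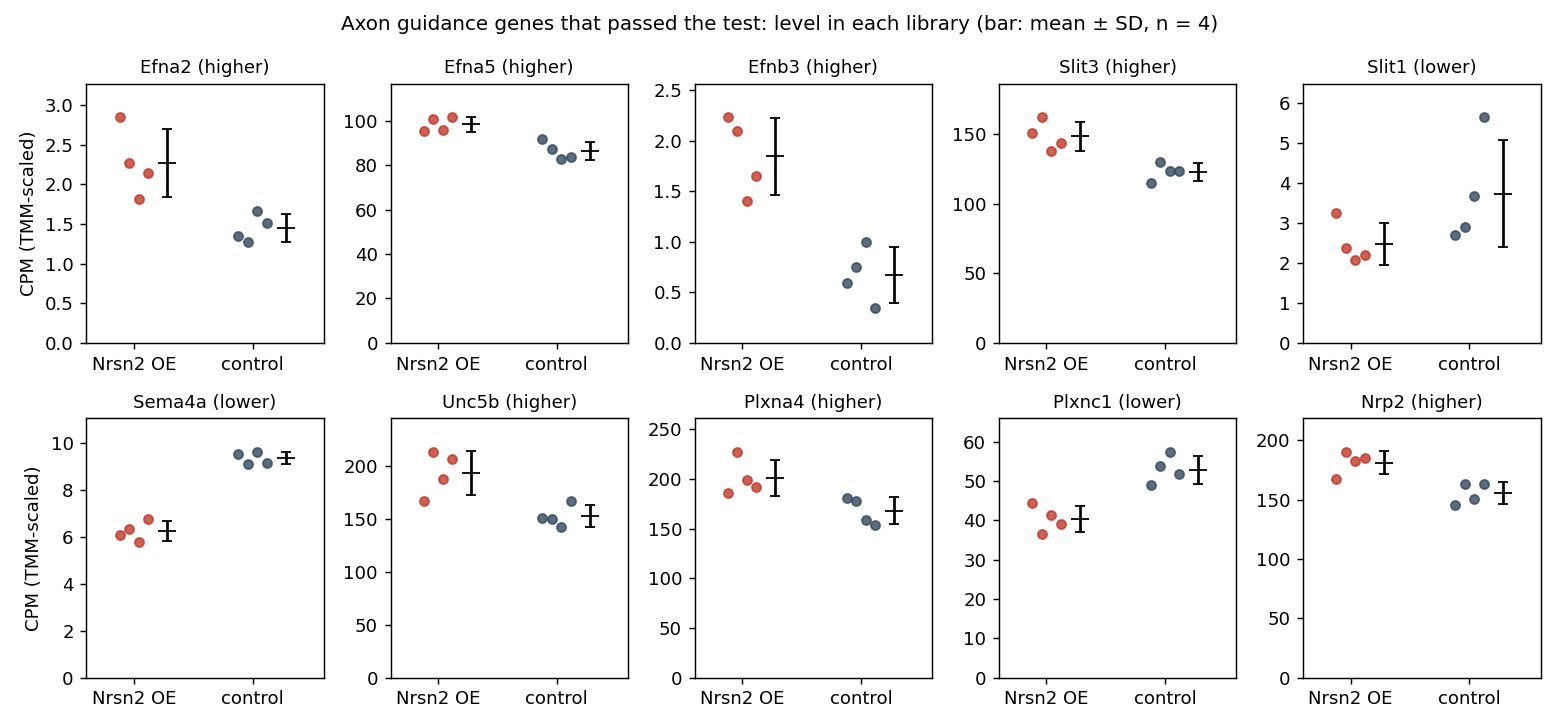
CPM in each library for the 10 genes that passed, with Nrsn2-overexpressing cells on the left and control cells on the right of each panel; bars are mean ± SD, n = 4 libraries each, on axes that start at 0. Libraries of the groups overlap for Unc5b and Slit1, and for the other 8 genes they do not.

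Semaphorins had 20 members, of which 11 were tested, with 1 lower and 0 higher, beside 16.8% lower and 18.6% higher over all tested genes. At an unadjusted edgeR p under 0.05 they counted 3 lower and 0 higher, and DESeq2 and limma-voom each called 1 lower and 0 higher. The share of all tested genes at that unadjusted threshold was not computed. It cannot be under the 35.4% that passed after adjustment, so the 3 are not read as a trait of the family. The gene that fell was Sema4a (chromosome 3, 88343266 to 88368489, minus strand), which encodes a membrane semaphorin with roles in the retina and in T cells. It had 6.08, 6.32, 5.77 and 6.78 CPM in overexpression libraries 1 to 4, against 9.53, 9.11, 9.61 and 9.16 CPM in control libraries 1 to 4. These groups were far apart relative to their spread (log2 fold change -0.58 ± 0.11; edgeR adjusted p = 5.64e-04). In the authors' deposited table the change was -0.59 with a standard error of 0.13.

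Sema4f and Sema4g, also of class 4, had log2 fold changes close to that of Sema4a, but with larger errors, and did not pass. Sema4f, at 1.57 ± 0.39 CPM with overexpression and 2.34 ± 0.30 CPM in control cells, did not overlap between groups (-0.55 ± 0.22; adjusted p = 0.0543). Sema4g had 1.81 ± 0.70 CPM with overexpression and 2.72 ± 0.71 CPM in control cells (-0.58 ± 0.25; adjusted p = 0.0820). Both passed as lower with GC and length offsets. Sema4g also passed with no low-count filter and without overexpression library 2, and Sema4f when control library 4 or overexpression library 3 was left out. The abundant members of the family stayed close to 0, with Sema6d, which steers cells through plexin-A1, at 0.05 ± 0.06, Sema4d, a plexin-B1 ligand, at -0.05 ± 0.07, Sema4b at 0.04 ± 0.08 and Sema6a at 0.0003 ± 0.09. Of the secreted class 3, Sema3g (-0.36 ± 0.20) and Sema3f (-0.21 ± 0.28) were tested, each at under 4 CPM. Sema3g passed as lower without overexpression library 1 (adjusted p of 0.0166 to 0.412 over the alternatives).

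Semaphorin receptors moved in both directions. Plxna4 (chromosome 6, 32121203 to 32565127, minus strand), whose product transduces class 3 semaphorin signals, had 186, 227, 199 and 192 CPM in overexpression libraries 1 to 4. Control libraries 1 to 4 had 181, 178, 159 and 154 CPM, so that no control library reached an overexpression library (log2 fold change 0.26 ± 0.07; edgeR adjusted p = 0.0107). Nrp2 (chromosome 1, 62742444 to 62857854, plus strand), the neuropilin that binds Sema3f, had 168, 190, 183 and 185 CPM with overexpression. It had 146, 164, 151 and 163 CPM in control libraries, again without overlap (0.22 ± 0.06; edgeR adjusted p = 0.0121). Plxna4, Nrp2 and Unc5b each overlap the span of other, far less counted genes, whose reads cannot be told apart from theirs where the spans meet.

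Plxnc1 (chromosome 10, 94626728 to 94780697, minus strand), which encodes the receptor of the lipid-anchored Sema7a, fell. It had 44.5, 36.6, 41.3 and 39.2 CPM in overexpression libraries 1 to 4, against 48.9, 53.7, 57.3 and 51.7 CPM in control libraries 1 to 4. All 4 overexpression libraries were below the control libraries (-0.39 ± 0.08; edgeR adjusted p = 8.07e-04). Its ligand gene Sema7a had 59 counts in all and was not tested. Plxnb2, a receptor of class 4 semaphorins, had 71.1 ± 5.48 CPM with overexpression and 80.3 ± 5.40 CPM in control cells (-0.18 ± 0.07; adjusted p = 0.0624). It passed as lower with GC and length offsets, with RLE size factors, and when control library 3 or overexpression library 1 was left out (adjusted p of 0.00258 to 0.201 over the alternatives). Plxna1 (0.15 ± 0.07) and Nrp1 (0.06 ± 0.08) did not pass. Plxnb3 failed the low-count filter, yet its counts of 7, 13, 5 and 5 with overexpression exceeded the 3, 2, 1 and 1 of control libraries. With no filter its log2 fold change was 1.87 ± 0.62 (edgeR adjusted p = 0.0223). This gene was singled out after its values were seen.

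Partners of the guidance receptors were read from a separate list of 87 co-receptors, other cues, adaptors, small GTPases and cytoskeletal effectors. More of them fell than rose: 21 of 77 tested were lower and 7 higher, beside 16.8% lower and 18.6% higher over all tested genes. In either direction 36.4% passed, beside 35.4% of all tested genes, and the median log2 fold change was -0.06. With GC and length offsets 28 were lower and 8 higher, beside 2711 lower and 2795 higher of all 15187 tested genes. The list was chosen with earlier results of these data known. The lower genes with the smallest p were Fzd3, a Wnt receptor of axon guidance (-0.48 ± 0.06; edgeR adjusted p = 1.43e-05), the adhesion gene L1cam, the actin regulator gene Enah (-0.36 ± 0.06), Arhgef11, a guanine nucleotide exchange factor bound by class B plexins (-0.49 ± 0.09), the adaptor gene Nck1 (-0.39 ± 0.08) and the kinase gene Rock1 (-0.34 ± 0.07). With GC and length offsets the log2 fold change was -0.26 for Nck1 (edgeR adjusted p = 0.0107) and -0.19 for Rock1 (edgeR adjusted p = 0.0401). Fzd3 averaged 83.2 ± 1.81 CPM with overexpression and 116 ± 6.31 CPM in control cells.

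Higher partners with the smallest p were the cofilin kinase gene Limk2 (0.36 ± 0.08; edgeR adjusted p = 0.00159), the netrin co-receptor gene Dscam (0.46 ± 0.10), Draxin, a secreted repellent cue (0.81 ± 0.19), the adaptor gene Grb10 (0.68 ± 0.17), the tyrosine kinase gene Abl2 (0.24 ± 0.06) and Trio, a guanine nucleotide exchange factor (0.23 ± 0.06). Draxin had 3.96 ± 0.80 CPM with overexpression and 2.27 ± 0.35 CPM in control cells, and Dscam had 12.9 ± 0.99 CPM with overexpression and 9.36 ± 0.54 CPM in control cells. The related kinase gene Limk1, named after its value was seen, was lower (-0.36 ± 0.10), while Limk2 was higher.

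**Figure D4:**
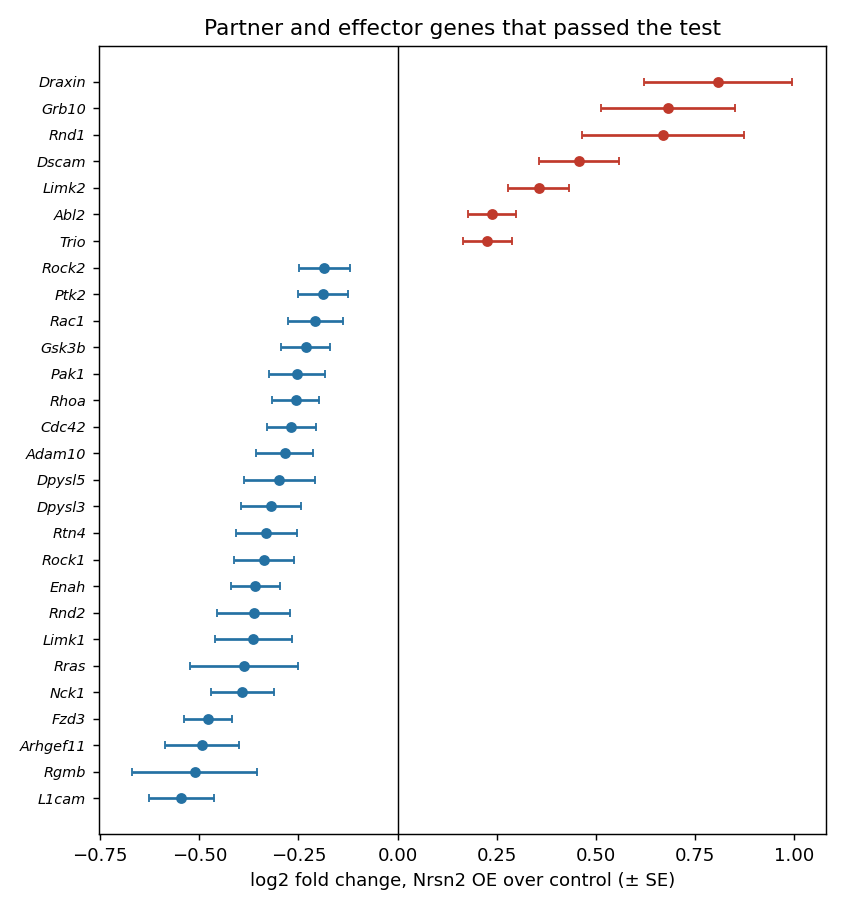
Log2 fold change of the 28 partner and effector genes that passed, Nrsn2 overexpression over control, with standard errors (n = 4 libraries each). Blue points (21) are lower and red points (7) higher, from Draxin at 0.81 down to L1cam at -0.55.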

How the data were processed

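The deposited table holds raw whole-number counts for 8 libraries by Ensembl gene, with gene positions, per the file headers; the submitters' processing notes name the build GRCm39. The authors' own log2 fold change, standard error and adjusted p-value are in the same table, per the file headers. Those notes list the tools DESeq2 1.36.0, HTSeq 2.01, TopHat2 2.1.1 and cutadapt 2.10, but their roles, the strand setting and the annotation release were not given in the sources used here. In the authors' deposited table, 13 of the 59 axon guidance genes given an adjusted p had one under 0.1 (8 higher, 5 lower). These 13 include all 10 that passed here. The threshold of 0.1 is looser than the one used here, and more axon guidance genes are covered. The share of all genes under 0.1 in that table was not computed. Both sets of values rest on the same 8 libraries, so the recurrence of the 10 is no independent check.

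Counts of 15187 genes that passed filterByExpr (minimum count 10) were compared with edgeR 4.0.16 (quasi-likelihood F test, TMM, R 4.3.3), with a threshold of 0.05 on the adjusted p. The SE of a log2 fold change is its size over the root of F. Exon lengths and GC content came from GENCODE M21 (GRCm38) by gene identifier, with 99.8% of tested genes matched. The spans of 21 of the 71 genes overlap that of another counted gene. Alternatives were DESeq2 1.42.0, RLE size factors, limma-voom (limma 3.58.1), no filter, each library left out, the replicate number as a block, and GC and length offsets. Library totals were compared by two-sided exact permutation over 70 arrangements, whose smallest p is 0.0286.

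Members and lists were chosen with earlier results of these data known. Named were Nrsn2, every member that passed, the 4 highest per length, members whose call changed when a library was left out, and the 6 partners with the smallest p in each direction. Other members were named by family, after their values were seen. Some marker and partner genes are not reported here.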

Additional observations from a re-analysis of the deposited data

How the results depend on the processing

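The count of axon guidance genes called higher was 6 or 7 with DESeq2, RLE size factors, limma-voom, no low-count filter, the replicate block and GC and length offsets, and 5 to 7 when single libraries were left out. The count called lower, 3, was less stable. It was 5 with no low-count filter, 9 with GC and length offsets, and 7 with these offsets and the replicate block together. Over all tested genes 2546 were lower in the main comparison and 2711 with GC and length offsets. Unc50, which is no guidance gene, was counted in the 9, in the 7 and without control library 4. When single libraries were left out the count ran from 2 to 6. The 6 came without overexpression library 1, the library that differed most from its replicates. The cause was not tested. The median log2 fold change of the 43 genes ran from -0.068 to 0.036 when single libraries were left out, and it turned positive, at 0.036, without control library 4. With GC and length offsets it was -0.087, and -0.094 with the replicate block as well. Of 10 genes called, 7 passed under all 15 alternatives, the exceptions being Efna2, Efna5 and Slit1. Over the named genes other than Nrsn2, 409 of 450 values kept their direction and side of the threshold, 18 fell out of the call, 23 came into it and 0 changed direction. Counts of partners were 28 lower and 8 higher with GC and length offsets, and 25 lower and 7 higher with the block as well. Without single libraries they ran from 16 to 22 lower and 6 to 8 higher, and Nrsn2 had a log2 fold change of 4.12 to 4.35. With GC and length offsets the log2 fold change of Nrsn2 was 4.08.

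Replicate numbers did not pair the samples, since same-numbered libraries had correlations of deviations from -0.10 to 0.06 and 1 of 4 overexpression libraries correlated best with its own number. With the replicate block, 7 axon guidance genes were higher and 2 lower, and 2705 of all genes were higher and 2392 lower. Depth limits genes under 1 CPM, which rest on few counts per library.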
